A study of Mus musculus with 6 samples.

Results

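The genes of the CIDE proteins (Cidea, Cideb, Cidec), the perilipins (Plin1 to Plin5) and the FIT proteins (Fitm1, Fitm2), which coat, fuse and form lipid droplets, were compared between Aspa knock-down cells and control cells. A gene was included where the platform annotation paired a probe set of the array with that gene alone, and the brightest such probe set on average over the 6 arrays stood for it. This gave 9 of the 10 listed genes, among 22180 genes represented on the array. Cideb had no probe set of its own, because the one that holds it is shared with its neighbour Nop9. The cells came from a mouse line of immortalized brown adipogenic cells (iBACs). They were grown to confluence, induced with IBMX, dexamethasone, insulin, triiodothyronine and indomethacin, kept in insulin and triiodothyronine, and harvested on day 7. Control cells (ntc) carried a lentiviral non-targeting construct and Aspa knock-down cells (siAspa) a lentiviral shRNA against Aspa, which encodes the enzyme that cleaves N-acetylaspartate, and both had been selected with G418. Each group gave 3 arrays from separate passages. A single shRNA clone number is given in the methods, so that the loss of Aspa and any other difference between the transduced lines cannot be told apart.

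Brown adipocytes store triglyceride in many small droplets and burn the fatty acids that lipases release from them. Perilipins sit on the droplet surface and control the access of these lipases, and each has its own tissue pattern. Plin1 and Plin4 are typical of adipocytes, Plin2 and Plin3 are found in most cells, and Plin5 is typical of oxidative tissues, where it links droplets to mitochondria. CIDE proteins gather at the contact of droplets and let lipid pass from the smaller to the larger. Cidea is a classical marker of brown fat, Cidec (also called Fsp27) is abundant in white and brown adipocytes, and Cideb acts in liver and intestine. FIT proteins reside in the endoplasmic reticulum and are needed for droplets to bud from it. Fitm1 is known mainly from muscle and Fitm2 from adipose tissue and many others.

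All values are log2 signals normalized by RMA, so that a difference of 1 is a doubling, and array medians ran from 5.78 to 5.85. Aspa, the targeted gene, read 9.07, 8.81 and 8.59 on the ntc arrays and 7.02, 6.97 and 7.44 on the siAspa arrays (replicates 1 to 3). The siAspa arrays thus held 28.7%, 27.6% and 38.4% of the mean control signal, and the third of them kept the most Aspa. Each probe set was tested with a linear model with moderated variances (limma), and p-values were adjusted by Benjamini-Hochberg over all 41345 probe sets. None of the 9 genes passed at an adjusted p under 0.05, a threshold that 0.189% of all probe sets passed (0.0726% lower and 0.116% higher). Aspa itself passed (log2 fold change -1.68, adjusted p = 0.0343), but in the 6 fits that left out 1 array its adjusted p ran from 0.0836 to 0.171. At an unadjusted p under 0.05, 5 members were lower (Cidea, Cidec, Fitm2, Plin1 and Plin5) and 1 was higher (Plin3), against 6.17% lower and 6.87% higher among all genes represented. Without ntc replicate 1, ntc replicate 3 or siAspa replicate 2, 3 were lower (Cidea, Cidec and Fitm2). For these fits the share over all genes was not computed. The groups did not overlap, with siAspa lower, in 5 members (Cidea, Cidec, Plin1, Plin4 and Fitm2) and, with siAspa higher, in 2 (Plin3 and Fitm1). Over all genes represented this held for 9.99% and 12.6%. The median log2 fold change was -0.32 over the 9 members and 0.02 over all genes represented. RNA of whole cultures was measured, so that fewer adipocytes and less RNA per adipocyte cannot be told apart.

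**Figure D1:**
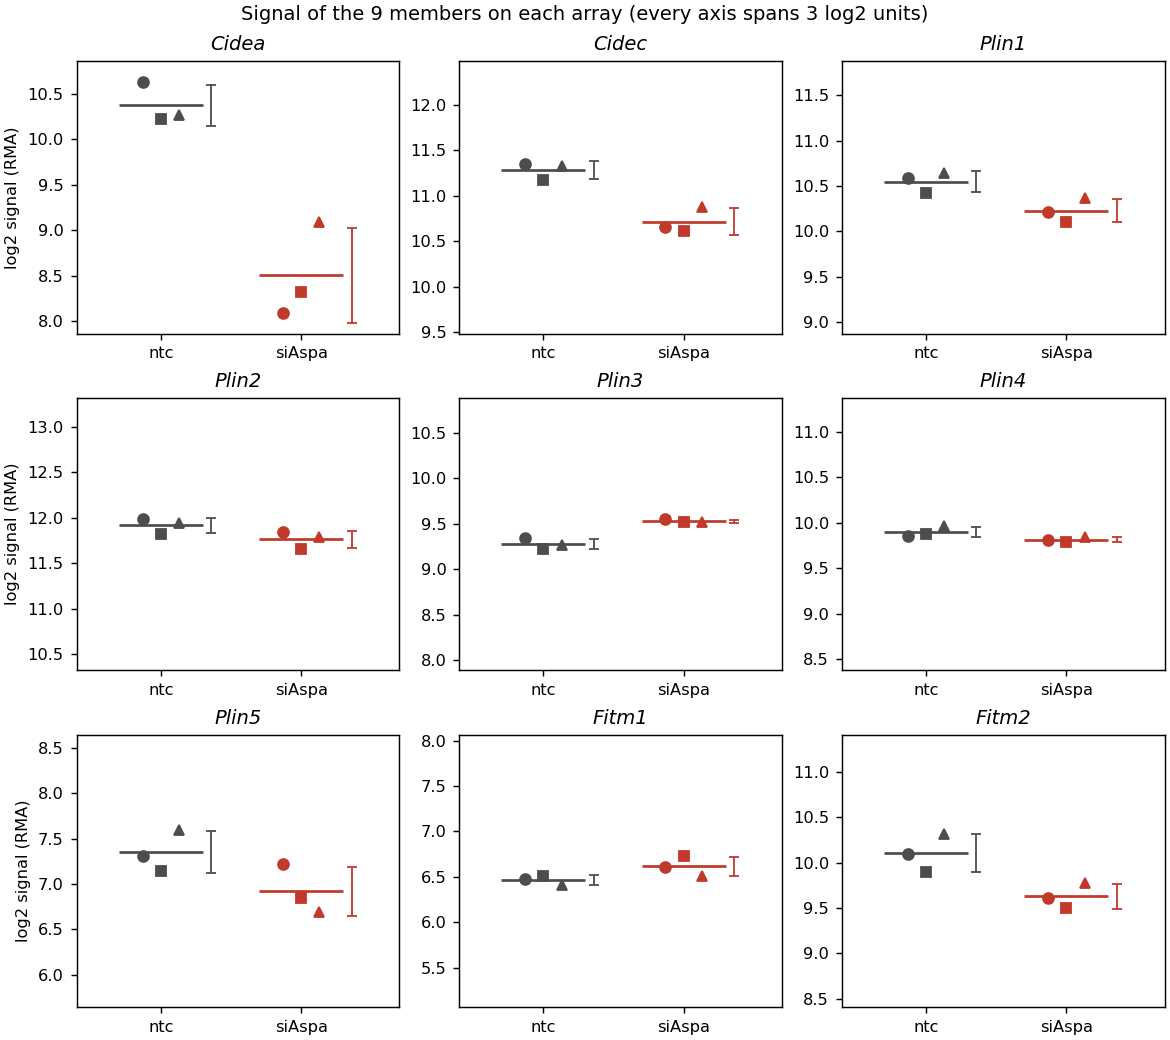
Log2 signal (RMA) of each member on the 3 ntc arrays (grey) and the 3 siAspa arrays (red). Circles, squares and triangles are replicates 1, 2 and 3, lines are means and bars are the SD. Every axis spans 3 log2 units, so that distances can be compared between panels. The groups of Cidea lie 1.13 apart at their nearest arrays, those of Plin2 and Plin5 overlap, and Plin3 is higher on all siAspa arrays.

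Promoter sequences are shown for 3 members whose groups did not overlap, Cidec and Plin1 (lower in siAspa) and Plin3 (higher), so that lower and higher members can be read side by side. RefSeq (build GRCm38.p6) gave promoter windows for 9 of the 10 listed genes, 11 windows in all. None was available for Cidea, whose promoter was therefore not searched. In each window the 250 bases before the start were searched on both strands. Capitals mark a match to TTGCNNAA, a pattern of C/EBP factors of adipocyte differentiation, or to the CCAAT box (CCAAT). Cidec has an upstream and a downstream start, shown in this order.
Cidec, chr6:113435761-113436010, minus strand: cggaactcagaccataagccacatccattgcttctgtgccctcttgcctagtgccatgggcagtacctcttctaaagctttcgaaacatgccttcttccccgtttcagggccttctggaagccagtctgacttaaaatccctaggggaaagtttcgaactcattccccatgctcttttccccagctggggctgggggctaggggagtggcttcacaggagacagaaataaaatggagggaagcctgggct
Cidec, chr6:113434765-113435014, minus strand: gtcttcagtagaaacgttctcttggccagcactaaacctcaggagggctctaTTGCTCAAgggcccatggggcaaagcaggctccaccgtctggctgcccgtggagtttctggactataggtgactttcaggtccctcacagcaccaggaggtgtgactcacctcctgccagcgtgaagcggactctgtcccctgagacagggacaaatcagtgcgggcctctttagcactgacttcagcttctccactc
Plin1, chr7:79732777-79733026, minus strand: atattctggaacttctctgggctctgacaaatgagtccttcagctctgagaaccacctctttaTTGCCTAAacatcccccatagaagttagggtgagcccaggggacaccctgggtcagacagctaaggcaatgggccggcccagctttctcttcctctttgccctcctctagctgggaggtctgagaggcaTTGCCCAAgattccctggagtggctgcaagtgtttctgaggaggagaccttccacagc
Plin3, chr17:56290512-56290761, minus strand: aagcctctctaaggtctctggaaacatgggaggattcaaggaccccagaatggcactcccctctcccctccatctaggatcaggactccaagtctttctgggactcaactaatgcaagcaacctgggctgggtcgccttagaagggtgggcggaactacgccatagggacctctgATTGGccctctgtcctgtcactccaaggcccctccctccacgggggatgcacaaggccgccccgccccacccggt
TTGCNNAA was present in the downstream Cidec window, at 198 bases before the start, and at 187 and 58 bases before the start of Plin1, and in no other window of the family, against 9.56% of all 32851 promoter windows. The CCAAT box was present in the windows of Plin2, Plin3, Plin4 and Plin5 (33.8% of all windows), among them 75 bases before the start of Plin3 as its reverse complement. Of the family windows searched, only those of Plin2 and Plin5 held the half-site AGGTCA of nuclear receptors (14% of all windows). The direct repeat of PPAR and its partner RXR, searched as AGGNCA, any base and AGGNCA again, can contain this half-site. This repeat, the cAMP response element TGACGTCA and the E-box CACGTG were in none of the 11 windows (0.338%, 1.55% and 6.02% of all windows). Among the lower members without overlap, Plin4 thus held a CCAAT box as Plin3 did, and Fitm2 held no match to any of these patterns. A match is no measure of binding, and a link between matches and direction was not tested.

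Among the CIDE genes, Cidea had the largest difference of the members and Cidec the next. Cidea (probe set 17351457) read 10.63, 10.23 and 10.27 on the ntc arrays and 8.09, 8.33 and 9.09 on the siAspa arrays. All siAspa arrays lay far below all control arrays. Relative to the mean control signal, 20.6%, 24.1% and 41.1% of Cidea were left. The group means were 10.38 ± 0.22 and 8.50 ± 0.52 (SD, n = 3 arrays each), a 3.66-fold difference with a 95% confidence interval from 2.39 to 5.62 (log2 fold change -1.87 with a standard error of 0.26, limma, adjusted p = 0.063). Only 1 of the 22180 genes represented had a lower log2 fold change, whereas Cidea ranked 100 by p-value, with an SD of 0.52 among the siAspa arrays. Whether Cidea passed depended on the probe sets fitted and on the variance model. Its adjusted p was 0.0253 with a prior variance fitted along the signal that limits the weight of outlying probe sets (here the robust prior), 0.0168 with probe sets above the median signal only, 0.00729 with single-gene probe sets only, 0.00665 with the probe sets of a gene averaged and 0.0489 with array weights. In the 6 fits that left out 1 array the log2 fold change ran from -2.17 to -1.67 and the adjusted p from 0.0695 to 0.251. The fit without siAspa replicate 3 gave both the value of -2.17 and the p of 0.0695.

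Cidec (probe set 17469754), which drives the growth of large droplets, read 11.36, 11.17 and 11.32 on the ntc arrays and 10.66, 10.61 and 10.88 on the siAspa arrays. The groups were separated by 0.29, and 67.6% of the control signal was left on average. The log2 fold change was -0.57 (95% confidence interval -0.81 to -0.32, adjusted p = 0.108 from limma), which placed Cidec at rank 175 from the bottom of all genes represented. As for Cidea, the adjusted p was lower with the robust prior (0.0365), with probe sets above the median signal (0.0316), with single-gene probe sets (0.0248) and with averaged probe sets (0.0228). In these 4 settings 0.571%, 1.91%, 1.4% and 1.43% of all features tested were called lower, against 0.109% with array weights, in which Cidec did not pass. The probe set shared by Nop9 and Cideb read 6.35, 6.30 and 6.44 in ntc and 6.22, 6.03 and 6.05 in siAspa (log2 fold change -0.26, adjusted p = 0.317). This signal cannot be assigned to Cideb.

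For Cidea, the difference between the groups was set against that of Cidec on the same arrays. The level of such a ratio depends on the probes, so that only its difference between groups is read. The log2 ratio of Cidea to Cidec was -0.72, -0.95 and -1.05 on the ntc arrays and -2.56, -2.29 and -1.79 on the siAspa arrays. This ratio was lower on every siAspa array. The mean difference was -1.31, and the 9 differences between a siAspa and an ntc array ran from -1.84 to -0.74 (exact permutation test, two-sided, p = 0.1, the smallest that 3 arrays against 3 allow, adjusted p = 0.125 over 5 pairs of members). The pair was compared with the value of Cidea already known.

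Of the perilipins, Plin1 and Plin5 lay lower in Aspa knock-down cells at an unadjusted p under 0.05, Plin3 lay higher, and Plin2 and Plin4 differed by little. Plin1 (probe set 17492406), the main guard of the adipocyte droplet against basal lipolysis, read 10.58, 10.42 and 10.64 in ntc and 10.22, 10.10 and 10.36 in siAspa. The highest siAspa array came within 0.05 of the lowest control array. The log2 fold change was -0.32 (95% confidence interval -0.56 to -0.08, adjusted p = 0.294 from limma). Plin2 (probe set 17426981), the coat protein that is stabilized by stored lipid, read 11.98, 11.82 and 11.94 in ntc and 11.85, 11.66 and 11.78 in siAspa. These groups overlapped, with a log2 fold change of -0.15 and a 95% confidence interval from -0.36 to 0.05 (adjusted p = 0.565). The interval leaves room for a reduction to a ratio of 1.28-fold.

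Plin3, Plin4 and Plin5 all lie on chromosome 17, and Plin4 and Plin5 are direct neighbours there by the RefSeq order of genes. Their values differed in direction. Plin3 (probe set 17346216), which moves from the cytosol onto young droplets, read 9.34, 9.23 and 9.27 in ntc and 9.55, 9.52 and 9.51 in siAspa. The siAspa arrays were nearly equal and all lay above the control arrays, at 119% of the control signal on average (log2 fold change 0.25, 95% confidence interval 0.08 to 0.42, adjusted p = 0.251). Plin4 (probe set 17346125), which coats small new droplets in adipocytes, read 9.85, 9.88 and 9.96 in ntc and 9.81, 9.79 and 9.84 in siAspa. The groups were separated by less than 0.01, and the interval of the log2 fold change ran from -0.25 to 0.09 around -0.08 (adjusted p = 0.741). Plin5 (probe set 17346136) read 7.31, 7.15 and 7.60 in ntc and 7.22, 6.84 and 6.69 in siAspa. Here siAspa replicate 1 lay within the range of the control arrays, and the log2 fold change of -0.43 had a wide interval from -0.84 to -0.03 (adjusted p = 0.398). Without ntc replicate 3, the highest control array of Plin5, it was -0.31.

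Within arrays, Plin4 relative to Plin3 was lower in every siAspa array. The log2 difference was 0.51, 0.65 and 0.69 in ntc and 0.26, 0.27 and 0.33 in siAspa (exact permutation test, two-sided, p = 0.1, adjusted p = 0.125 over the 5 pairs). As Plin4 was lower and Plin3 higher without overlap, this outcome was fixed by the single genes and the test adds nothing. Plin1 relative to Plin2 was lower by 0.17 on average, with the groups only 0.01 apart (exact permutation p = 0.1, adjusted p = 0.125). Plin5 relative to Plin2 overlapped between the groups, with differences from -0.75 to 0.05 around a mean of -0.28 (exact permutation p = 0.3).

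The FIT genes had log2 fold changes of opposite sign. Fitm2 (probe set 17394036) read 10.09, 9.90 and 10.32 in ntc and 9.61, 9.50 and 9.77 in siAspa. All siAspa arrays were below the control arrays by at least 0.12, with 71.9% of the control signal left on average (log2 fold change -0.48, 95% confidence interval -0.78 to -0.17, adjusted p = 0.229 from limma). Fitm1 had 2 probe sets. The brighter one (17306692) read 6.48, 6.50 and 6.41 in ntc and 6.61, 6.72 and 6.51 in siAspa, a log2 fold change of 0.15 with a 95% confidence interval from -0.05 to 0.35 (adjusted p = 0.563). The dimmer one (17300544) had a log2 fold change of -0.01, and the mean of both gave 0.07, so that the higher value of Fitm1 rests on 1 probe set. Fitm1 relative to Fitm2 was higher on every siAspa array, by 0.63 on average (exact permutation test, two-sided, p = 0.1, adjusted p = 0.125 over the 5 pairs). The single genes fixed this outcome, because the brighter Fitm1 probe set was higher and Fitm2 lower without overlap, so the test adds nothing.

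**Figure D2:**
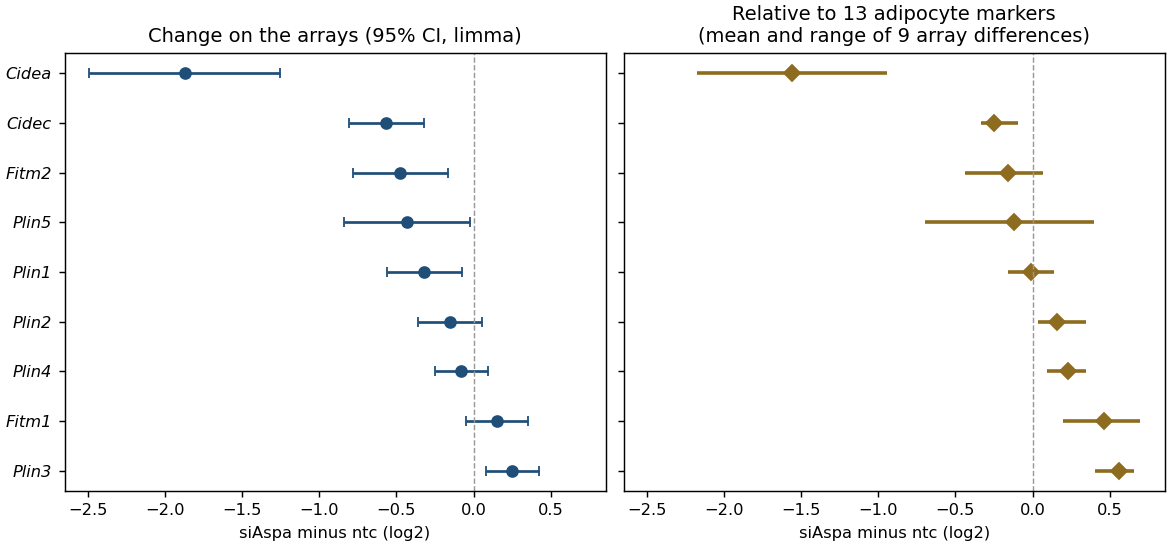
Left, log2 fold change of each member (siAspa minus ntc) with its 95% confidence interval from limma. Right, the same difference after subtraction of the mean log2 signal of 13 general adipocyte markers on each array, as the mean (diamond) and the range of the 9 differences between a siAspa and an ntc array (line). Cidea is the lowest in both panels, at -1.87 and -1.56, Plin1 moves from -0.32 to -0.01, and Plin3 is the highest.

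General markers of adipocytes outside the family were measured on the same arrays. The log2 fold change was negative for all 13 measured markers (median -0.21). None passed after adjustment in limma (6 lower with the robust prior), while 7 had an unadjusted p under 0.05, each of them lower. Their summed linear signal ran from 42573 to 43632 on the ntc arrays and from 33532 to 37739 on the siAspa arrays. Aqp7, the glycerol channel of adipocytes, Lep, which encodes leptin, Slc2a4, the insulin-responsive glucose transporter, and the fatty acid transporter Cd36 had values of -0.75, -0.56, -0.63 and -0.46 in log2 fold change, with limma's adjusted p at 0.0608, 0.0665, 0.102 and 0.108. The mean log2 signal of the markers differed by -0.31 between the groups. The part of these markers in the values of the members was not tested beyond the following ratios.

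Relative to the mean of these markers on the same array, Cidea was lower by 1.56, with the 9 differences between a siAspa and an ntc array running from -2.17 to -0.94. Cidec was lower by 0.25, with differences from -0.34 to -0.10. Neither overlapped between the groups (exact permutation test, two-sided, p = 0.1, adjusted p = 0.15 over the 9 members). Plin1 differed by only -0.01, with differences from -0.16 to 0.14 (exact permutation p = 1), and Fitm2 and Plin5 overlapped between the groups (exact permutation p = 0.3 and 0.7). Relative to the adipocyte markers, Plin2, Plin3, Plin4 and Fitm1 were higher in siAspa, by 0.16, 0.56, 0.23 and 0.46 on average. None of these overlapped between the groups (exact permutation p = 0.1 for each, adjusted p = 0.15). For Plin3 and Fitm1 this was fixed beforehand, because both were higher and the marker mean lower without overlap. The mean of the markers itself ran from 10.62 to 10.67 in ntc and from 10.26 to 10.43 in siAspa. Against it, a gene with little change and a small spread is higher too. For these ratios the share without overlap over all genes was not computed. The sign for Plin2 and Plin4 turned when the adipocyte markers were the reference. Single markers had log2 fold changes from -0.75 to -0.08, so that all of these ratios depend on the markers averaged. Other choices of markers were not tested.

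The members did not share a single order of arrays. Among the ntc arrays, replicate 2 was the lowest for 7 of the 9 members. Among the siAspa arrays, replicate 2 was the lowest for 5 and replicate 3 for 3, and replicate 3 was the highest for 5 (Cidea, Cidec, Plin1, Plin4 and Fitm2). For Plin3, Plin5 and Fitm1, replicate 3 was instead the lowest siAspa array. The adipocyte markers had their highest mean of the siAspa arrays, 10.43, in replicate 3 as well, against 10.30 and 10.26 in replicates 1 and 2.

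By the root mean square difference of log2 signals centred on each gene's mean over the 6 arrays, the genes with the pattern most like that of Cidea were Ucp1, Aspa, Ifi213, Ces1f and Itih4, at distances of 0.18, 0.21, 0.30, 0.32 and 0.39. Ucp1, the uncoupling protein of brown fat mitochondria, read 12.07, 11.62 and 11.71 in ntc and 9.96, 9.87 and 10.41 in siAspa. Cidea, Ucp1 and Aspa were all highest in ntc replicate 1 and, among the siAspa arrays, in replicate 3. The lowest siAspa array was replicate 1 for Cidea and replicate 2 for Ucp1 and Aspa, and the lowest ntc array was replicate 2 for Cidea and Ucp1 and replicate 3 for Aspa. Ifi213 belongs to an interferon-inducible family, Ces1f is a carboxylesterase and Itih4 is an inter-alpha-trypsin inhibitor heavy chain. With 6 arrays in 2 groups, this distance follows mainly from the size of the difference between the groups. The nearest member was Cidec, at rank 120 of all other genes and a distance of 0.70, followed by Fitm2 at rank 262.

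**Figure D3:**
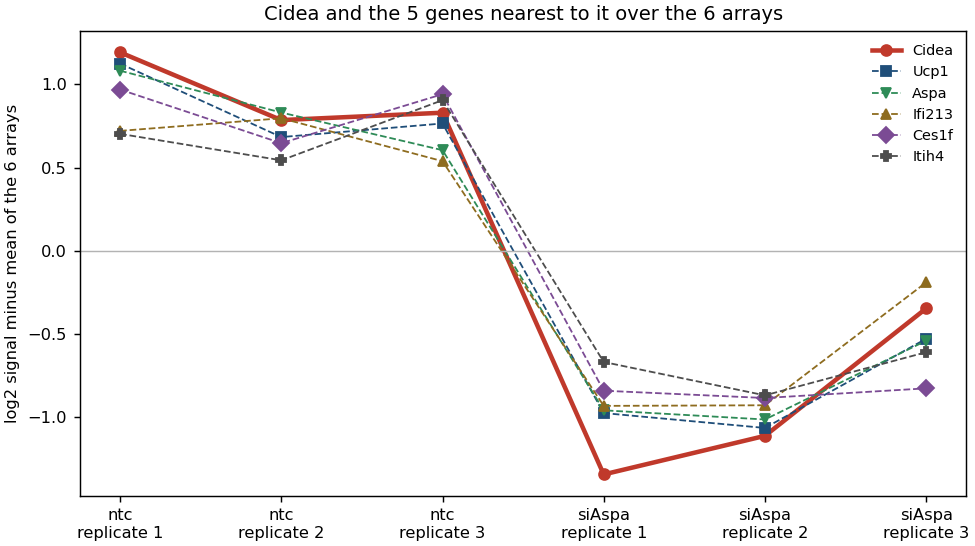
Log2 signal minus the mean of the 6 arrays (vertical axis) for Cidea (solid line) and the 5 genes nearest to it (dashed lines) on each ntc and siAspa array (horizontal axis). Lines join the values of a gene and do not stand for an order of replicates. All 6 genes lie above 0 on the ntc arrays and below 0 on the siAspa arrays, and in siAspa replicate 1 Cidea lies the lowest.

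Lipases act on the stored triglyceride once the coat gives access to it. Of 10 measured lipases and lipase cofactors, 2 were lower and none was higher after adjustment (limma, 4 lower with the robust prior), 7 had an unadjusted p under 0.05, each of them lower, and the median log2 fold change was -0.52. The genes that passed were Ces1f and the monoacylglycerol lipase gene Abhd6, with log2 fold changes of -1.71 and -0.91 (limma, adjusted p = 0.0173 and 0.0368). Without 1 array the adjusted p of Ces1f ran from 0.0371 to 0.157 and passed only without ntc replicate 2, and that of Abhd6 ran from 0.0904 to 0.185. The direction could not turn in these fits, because neither gene overlapped between the groups. Pnpla2, which encodes the triglyceride lipase ATGL, read 10.83 ± 0.07 in ntc and 10.24 ± 0.12 in siAspa (SD, n = 3 arrays each), and its log2 fold change of -0.59 did not pass (limma, adjusted p = 0.0772). Ces1d, a carboxylesterase of the droplet, had one of -1.06 (adjusted p = 0.102).

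Of 17 measured genes of triglyceride synthesis and droplet formation, none passed (1 lower with the robust prior). At an unadjusted p under 0.05 there were 5 lower and 2 higher genes, and the median log2 fold change was -0.15. Dgat1, which makes triglyceride from diacylglycerol, had the lowest p among them (limma, log2 fold change -0.52, adjusted p = 0.0608). The phosphatase Lpin1 and the acyltransferases Agpat3 and Gpam, which act upstream of it, had values of -0.65, -0.38 and -0.33 in log2 fold change, with limma's adjusted p at 0.147, 0.185 and 0.261. Other droplet-associated proteins lay close to 0, with a median of -0.04 over 24 genes, of which none passed (1 lower with the robust prior), with 4 lower and 1 higher gene at an unadjusted p under 0.05. Dhrs3, a retinal reductase, had the lowest p there (log2 fold change -0.46, adjusted p = 0.109), followed by the lipid transfer protein gene Vps13c, the caveolar coat gene Cav1 and Hsd17b11, with -0.31, -0.27 and 0.27.

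Of 16 measured transcription regulators that are known to act on droplet or brown fat genes in adipocytes, none passed (3 lower with the robust prior). An unadjusted p under 0.05 was found for 9, each of them lower, and the list median was -0.26. Ppara, the fatty acid receptor that drives oxidation genes, the coactivator Ppargc1b, the brown lineage factor Ebf2 and the carbohydrate-responsive factor Mlxipl had values of -0.78, -0.69, -0.70 and -0.71 in log2 fold change, with limma's adjusted p at 0.0911, 0.0982, 0.101 and 0.133. With the probe sets of a gene averaged, the log2 fold change of Ebf2 was -0.41. Brown adipocyte markers had the lowest median of the lists, -0.66 over 13 measured genes, of which Ucp1 and Otop1, a proton channel, were lower after adjustment (limma, log2 fold changes -1.72 and -1.11, adjusted p = 0.0343 for both) and none was higher (4 lower and 0 higher with the robust prior). At an unadjusted p under 0.05 there were 9 lower markers and 1 higher, the transcription factor gene Lhx8, which read 6.85 on average in ntc and 7.46 in siAspa with no overlap (limma, log2 fold change 0.61, adjusted p = 0.108). Ppara and Ebf2 are on this list too. Without 1 array the adjusted p of Ucp1 and Otop1 ran from 0.0809 to 0.171 and from 0.0919 to 0.185.

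**Figure D4:**
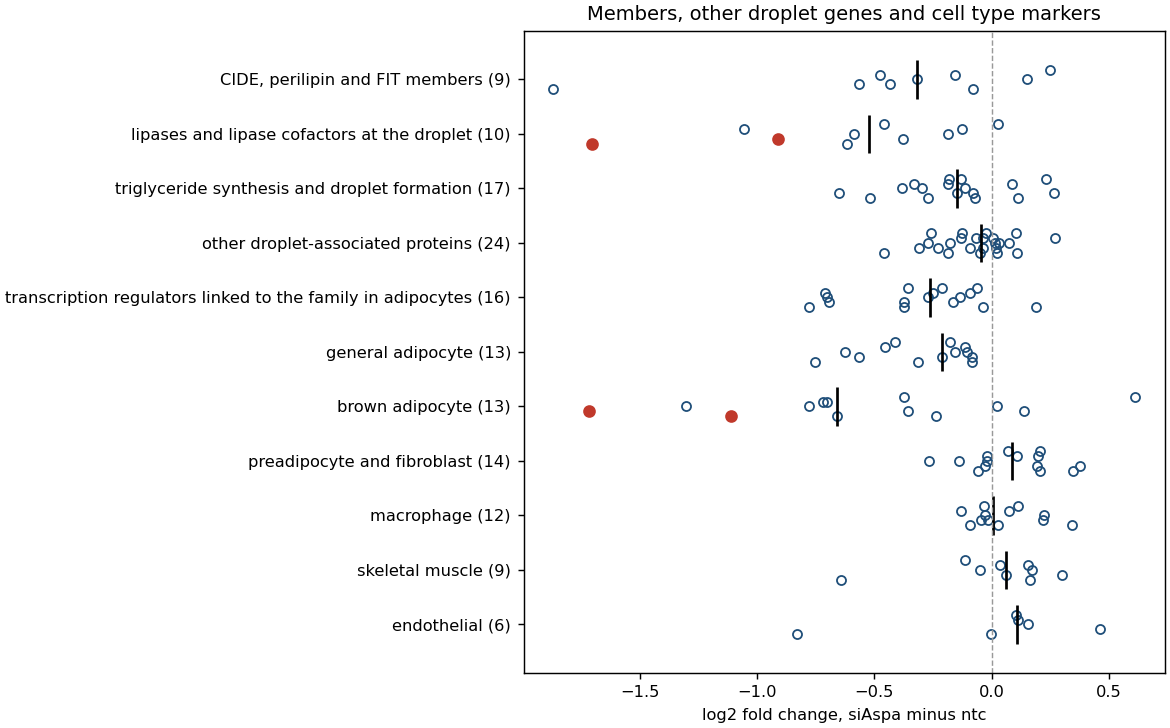
Log2 fold change (siAspa minus ntc) of single genes, 1 circle per gene, in the family and in each list, with the number of measured genes in brackets and the list median as a vertical line. Filled red circles passed an adjusted p under 0.05 in limma. The 9 members have a median of -0.32, between the lipases at -0.52 and the other droplet-associated proteins at -0.04.

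Markers of other cell types were compared for the same arrays. Of 14 preadipocyte and fibroblast markers none passed (0 lower and 1 higher, Postn, with the robust prior) and 6 had an unadjusted p under 0.05, 1 of them lower and 5 higher. Their summed linear signal ran from 65370 to 68739 in ntc and from 72756 to 75669 in siAspa. Postn and Cd34 had log2 fold changes of 0.34 and 0.38 and Pdgfra one of -0.27 (adjusted p = 0.174, 0.280 and 0.320). Their part in the values of the members was not tested. The macrophage list had a median of 0.00 over 12 genes, of which 0 were lower and 1, the phagocytic receptor gene Mertk, was higher before adjustment (unadjusted p under 0.05, log2 fold change 0.34). Its summed linear signal ran from 815 to 923 in ntc and from 854 to 991 in siAspa. Mean signals ran from 4.03 for Ptprc, the pan-leukocyte gene, and 4.33 for Adgre1, which encodes F4/80, to 7.85 for Mertk, and 6 of the 12 genes lay below the median of all probe sets. The skeletal muscle and endothelial lists had medians of 0.06 and 0.11 over 9 and 6 genes, each with 1 lower and 1 higher gene by the same criterion. In log2 fold change these were Des (-0.64) and Actn3 (0.30) for muscle, and Emcn (-0.83) and Tek (0.46) for endothelium. None of them passed after adjustment, and 5 of the 6 endothelial genes lay below the median of all probe sets. The summed linear signals of both lists overlapped between the groups, from 795 to 896 and from 299 to 331 over all arrays.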

How the data were processed

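RNA of the 6 samples (200 ng of total RNA each) was hybridized to 1 Mouse Gene 2.0 ST array (Affymetrix) per sample. The deposited values are log2 signals, which the authors obtained with RMA in CarmaWeb (background correction, quantile normalization, summary of probes). The sources used here give neither a version nor a definition of the probe sets. RMA equalizes the probe values between arrays before it summarizes them and compresses the differences of dim probe sets. The values carry no detection call.

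The platform annotation paired 23521 of 41345 probe sets with a single gene. RefSeq held the gene identifier of 23328 of them, from which symbols were updated, and the brightest probe set stood for a gene. Probe sets were compared with lmFit and eBayes of limma 3.58.1 in R 4.3.3, two-sided, with Benjamini-Hochberg adjustment over all probe sets, after the methods of the study. By a moderated t-test with this adjustment, the paper lists Cidea among its most strongly lowered significant genes. Here the adjusted p of Cidea was 0.063 (limma). The difference is not limited to Cidea. The paper counts more genes lowered than raised, whereas here 30 probe sets were lower and 48 higher. The source of these differences was not tested. The paper also reports lower Cidea mRNA by qPCR in Aspa knock-down cells given NAA, and less H3K27 acetylation at Cidea after the knock-down. Ratios within arrays were compared with exact permutation tests (scipy). A p-value covers the spread among these 6 arrays, whose number limits the precision.

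The members, lists and tests were chosen with earlier results of these data known. From each list up to 4 genes with the lowest p are named, plus those that passed, Aspa, and the 5 genes nearest to the member with the largest change. Lhx8, Ptprc and Adgre1 were named outside this rule, after their values had been seen. Kcnk3, Ly6a, Cfd, Acsl1, Acsl3 and Ldaf1 had no single-gene probe set. The alternatives were a replicate block, the robust prior, a fit of bright or of single-gene probe sets, subtraction of array medians, repeated quantile normalization, array weights, a limit of 1.5-fold, averaged probe sets and leaving out each array.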

Additional observations from a re-analysis of the deposited data

How the results depend on the processing

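The block, the robust prior, the limit of 1.5-fold and the choices of probe sets leave the log2 fold change of a probe set as it is. Over 9 alternatives that can change it (medians subtracted, quantile normalization repeated, array weights, 1 array left out), 0 of 81 values of members changed direction. For members whose groups did not overlap, weighting or leaving out arrays could not turn the direction, so much of this count was fixed beforehand. Averaging the probe sets of a gene can change its value too and is not among these 9. Of 135 adjusted p-values of members under all alternatives, 126 stayed on their side of the threshold and 9 passed where the reported value did not, all of Cidea or Cidec. With 0 members called lower with all probe sets and arrays, 2 were called with the robust prior, 2 with probe sets above the median signal, 2 with single-gene probe sets only, 2 with averaged probe sets and 1 with array weights. None was called higher under any alternative, and without any 1 array 0 were called in either direction. At an unadjusted p under 0.05 in limma, 3 to 5 members were lower and 1 was higher, and without ntc replicate 1, ntc replicate 3 or siAspa replicate 2 the 3 lower ones were Cidea, Cidec and Fitm2. The share of all genes at this unadjusted threshold was not computed for the alternatives.

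Over all probe sets, 30 were lower and 48 higher. The robust prior gave 236 and 152, probe sets above the median signal 394 and 253, and single-gene probe sets 329 and 251. Leaving out 1 array gave 0 to 1 lower and 0 to 1 higher. A fit of fewer probe sets adjusts over fewer tests and also estimates the variance prior anew, and their parts were not separated. The cause was not tested. The labels do not state whether the replicate numbers mark shared passages. The deviations of same-numbered arrays correlated by 0.00, 0.02 and 0.00 over all probe sets. Replicate 2 was the lowest array of both groups for Cidec, Plin1, Plin2 and Fitm2. A pairing of the samples was therefore neither shown nor excluded. With the replicate numbers as a block, 0 probe sets passed in either direction, Cidea had an adjusted p of 0.175 and Cidec one of 0.204 (limma). For 30 other named genes, 0 of 270 values changed direction under the same 9 alternatives, with the same limit for genes without overlap. Of 450 adjusted p-values under all alternatives, 57 passed where the reported value did not and 41 no longer passed. With 3 arrays a group, small differences such as those of Plin2 and Plin4 were not resolved.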
